A study of Equus caballus with 21 samples.

Results

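The comparison set luminal epithelium on day 12 of pregnancy against luminal epithelium on day 12 of the estrous cycle in the mare. All libraries labelled as luminal epithelium were taken, which gave 4 pregnant libraries (mares B, C, M and U) and 5 cyclic libraries (mares B, C, J, M and U), 9 of the 21 libraries of the series. The luminal layer was dissected with a laser from sections of frozen uterine biopsies, and every library stands for 1 biopsy. A letter names the mare, so 4 mares were measured in both states and mare J only in the cyclic state. The labels hold 5 mares, whereas the design text speaks of 6. All mares were healthy warmbloods whose ovulation was induced with human choriogonadotropin (hCG), and mares in the pregnancy cycle were also inseminated. The sources used here do not give the mares' ages or the order of the cycles. A kit meant for single cells turned the very small amounts of RNA into libraries, and an unstated number of libraries were amplified again.

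The luminal epithelium covers the inner surface of the uterus and is the first maternal tissue that the conceptus meets. In the horse the conceptus stays inside a glycoprotein capsule and moves freely through the uterus at this stage, and signals between it and this epithelium lead to maternal recognition of pregnancy, in which the corpus luteum is kept. The epithelium controls the water, ions and proteins of the uterine fluid on which the unattached conceptus lives, and it secretes part of that fluid together with the glands. The comparison asks which of its transcripts differ with an early conceptus present.

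Total counts ran from 324704 to 1382614 in the cyclic libraries and from 136259 to 440188 in the pregnant ones. The lowest total, 136259, and the fewest detected genes, 4648, belonged to the pregnant library of mare M, and the other libraries detected 6116 to 11798 genes. RN18S, the 18S ribosomal RNA gene, took 0.452% of the counts of that library and 11.4% to 47.5% of the others. Levels are given in CPM, counts scaled to a common library size after adjustment by the trimmed mean of M values (TMM), and 1 count stood for 1.08 to 6.42 CPM, with 6.42 in pregnant M. The epithelial markers EPCAM, KRT18 and CDH1 had counts in every library, and their sum was 917 to 3037 CPM (of counts without ribosomal RNA genes, as for all marker sums) in pregnant and 429 to 1994 in cyclic libraries. Of these, CDH1 had 204 to 1181 CPM in pregnant and 3.97 to 127 in cyclic libraries, and it is itself among the genes called without pregnant M. EPCAM had 373 to 2204 and 79.5 to 1677 CPM, and KRT18 6.01 to 342.5 and 58.4 to 378 CPM. The listed markers KRT8 and KRT19 had no match. Fibroblast markers summed to 1085 to 7232 CPM in pregnant and 756 to 2781 in cyclic libraries, with 5 and 6 of the 6 matched markers detected. The highest fibroblast sum belonged to pregnant M, where COL1A1 stood at 3841 and COL1A2 at 2462 CPM, and this library also held the lowest sum of ciliated-cell markers, 110.6 CPM against 1048 to 2565 elsewhere. Red-cell markers HBB and ALAS2 and the trophoblast markers HAND1, GATA3, CDX2 and ELF5 had no count in any luminal library. The remaining trophoblast marker, TFAP2C, had 1.38 CPM in cyclic C, 19.9 in cyclic M, 9.01 in pregnant C and no count elsewhere. Fewer cells of a type and less RNA per cell cannot be told apart in such captured tissue.

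In pregnancy 15 genes were higher and 4 lower in luminal epithelium (edgeR quasi-likelihood test, adjusted p under 0.05 over 4344 genes tested). On the same libraries DESeq2 called 83 genes, 17 of the 19 among them, and limma-voom called RN18S only, and without the pregnant library of mare B edgeR called 2. The edgeR calls were 0.345% (higher) and 0.0921% (lower) of the tested genes. The higher genes included the water channel AQP1, the complement inhibitor CD55, the proton-pump subunit ATP6V0A4, the growth factor FGF9, the lipid-transfer protein GM2A, the calcium-binding proteins ANXA2 and S100A6 and 3 loci without a gene name. The lower genes included the kinase RPS6KA3, the secreted guidance protein SEMA3G and DOCK8, an activator of small GTPases. At an unadjusted p under 0.05, 154 genes (3.55%) were higher and 185 (4.26%) lower, and the median log2 difference over all genes was -0.04, with 48.9% of genes positive. With another scaling (RLE size factors) this median was 0.11, and the medians of the gene lists also lay higher with it, by differing amounts.

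The 2 groups of libraries did not overlap in 15 of the 19 called genes, 11 of the higher and 4 of the lower, and 4.72% of all tested genes had groups that did not overlap. In 16 of the 19 the change went the same way in all 4 mares measured in both states, which held for 17.3% of all tested genes. These shares describe genes that were called from the same values. Most genes named below without a call were picked by a small p, so groups that do not overlap in them add no support. Among the 15 higher genes the lowest pregnant library was C in 10, U in 3, M in 2 and B in none.

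**Figure D1:**
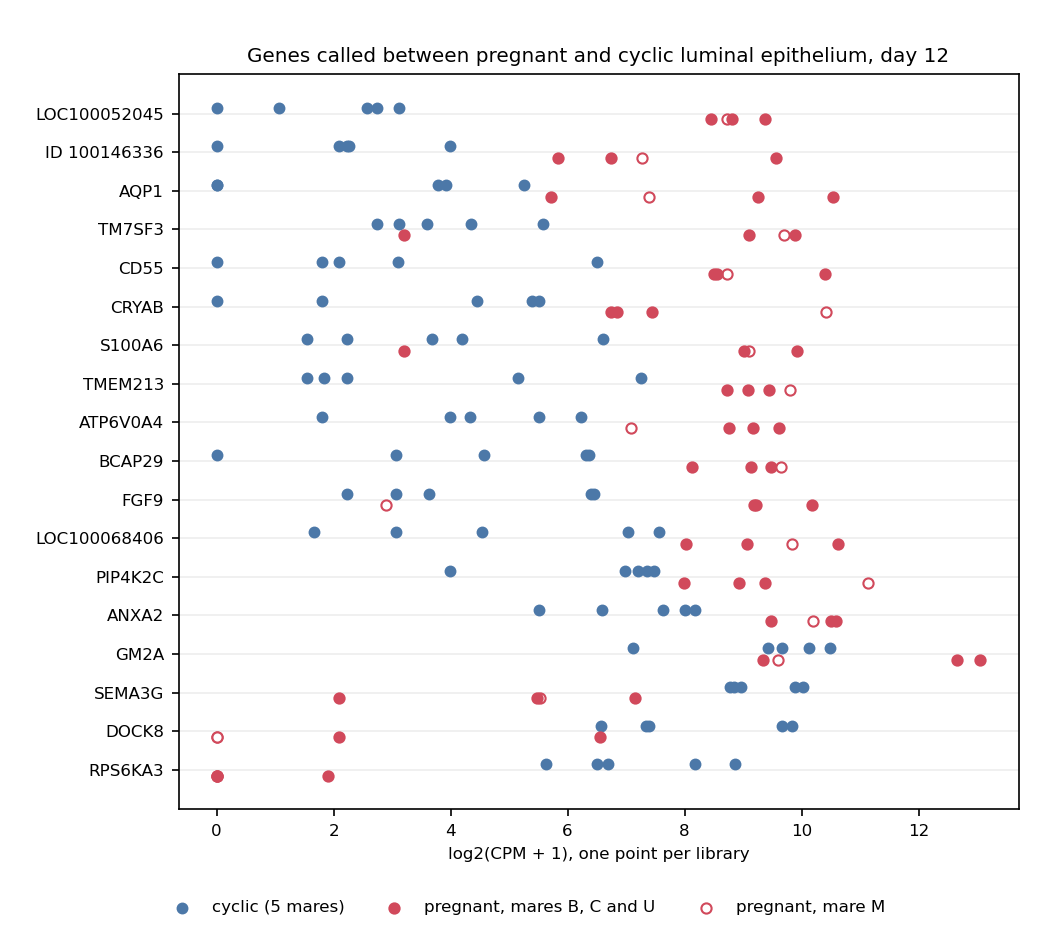
Level of 18 called genes in the 9 luminal libraries, as log2(CPM + 1), with cyclic libraries in blue, pregnant libraries in red and the pregnant library of mare M as an open circle. The 15 higher genes stand above and 3 lower genes below, and the groups overlap for TM7SF3, S100A6, FGF9 and GM2A.

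The lists of water and salt transport and of proton pump and acid-base genes held 3 of the called genes, all higher. These were 1 of 10 and 2 of 13 tested members, against 0.345% of all tested genes called higher. The lists were chosen with earlier results of these data known, so the counts do not test a theme. AQP1 forms a water channel in the plasma membrane. It stood at 12.7, 14.1, 37.1, 0 and 0 CPM in cyclic B, C, J, M and U and at 1485, 51.6, 167 and 608 CPM in pregnant B, C, M and U. Every pregnant library lay above every cyclic one, although pregnant C came within a small distance of cyclic J. AQP1 rose by 5.45 ± 1.05 on the log2 scale (estimate ± SE, adjusted p = 0.000737). Leaving out pregnant B took its adjusted p to 0.284. KCNK1, a potassium channel of many epithelia, had 0 to 112 CPM in cyclic and 192.5 to 574 CPM in pregnant libraries, and its adjusted p was 0.146 with all libraries, 0.043 without pregnant M and 0.0726 with the mare as a block and mare M left out. The gene lists held 576 different genes, of which 279 had enough counts to be tested. Of the water and salt transport list 10 of 22 genes could be tested, 4 were positive, and the median was -0.05 (0.04 with RLE size factors, 0.23 without pregnant M). Among the subunits of the epithelial sodium channel, SCNN1G (-1.5 ± 1.17) and SCNN1A (-0.59 ± 0.99) had negative estimates and SCNN1B one near 0 (-0.01 ± 1.06), none past the threshold.

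ATP6V0A4 is a subunit of the vacuolar proton pump that is best known from acid-secreting cells of the kidney. Its cyclic levels were 73.9, 44.3, 2.47, 14.8 and 19 CPM in B, C, J, M and U, and its pregnant levels 783, 429, 135 and 577 CPM in B, C, M and U. Pregnant M was the lowest of the pregnant libraries and still lay above all cyclic ones. ATP6V0A4 rose by 3.94 ± 1.02 (adjusted p = 0.0369, 0.158 with the mare as a block). Leaving out cyclic C, J, M or U or pregnant B or U took its adjusted p to between 0.071 and 0.284. TMEM213, a small membrane protein placed on the same list, stood at 2.55, 34.6, 151, 3.7 and 1.9 CPM in the cyclic and at 692, 424, 886 and 540 CPM in the pregnant libraries. Cyclic J was the highest cyclic library, and the pregnant libraries lay within a narrow band far above it. TMEM213 rose by 4.02 ± 0.93 (adjusted p = 0.0138), with 0.0624 to 0.126 when cyclic B, M or U or pregnant B was left out. ATP6V1C2, a subunit of the cytosolic sector of the pump, had a log2 difference of 1.68 ± 0.63 (adjusted p = 0.324), and its groups did not overlap, with 245 to 668 CPM in cyclic and 988 to 1829 in pregnant libraries. Of the proton pump and acid-base list 13 of 30 genes were tested and 9 of them were positive, with a median of 0.61, and the subunits ATP6V1A (-2.78 ± 1.74) and ATP6V0C (-1.58 ± 1.65) had negative estimates short of the threshold.

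CD55, which speeds the decay of complement convertases on the cell surface, rose, while its companion CD46 did not pass the test and had a negative estimate. CD55 stood at 89.2, 3.24, 2.47, 0 and 7.61 CPM in cyclic B, C, J, M and U and at 1341, 362, 424 and 375 CPM in pregnant B, C, M and U. Mare B had the highest level in either state, and each mare rose. The log2 difference was 4.92 ± 0.99 (adjusted p = 0.00142), with an adjusted p of 0.194 without pregnant B. CD46, a cofactor for the cleavage of complement fragments, stood at 805, 235, 475, 1499 and 674 CPM in the cyclic libraries and at 85.2, 277, 6.42 and 21.7 CPM in the pregnant ones. Pregnant C overlapped cyclic C, and the difference was -2.89 ± 0.82 (adjusted p = 0.0723). For complement and its inhibitors 7 of 18 genes were tested, 4 of them were positive with a median of 0.49 (0.12 without pregnant M), and CD55 was the only one called by edgeR, while DESeq2 called 1 higher and 1 lower.

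FGF9 and RPS6KA3 were called in opposite directions. FGF9 is a secreted fibroblast growth factor. It stood at 86.6, 83.2, 7.42, 3.7 and 11.4 CPM in cyclic B, C, J, M and U and at 597, 1155 and 583 CPM in pregnant B, C and U. Pregnant M held 6.42 CPM, a single count, so that the groups overlapped through this library. FGF9 rose by 3.9 ± 0.95 with all libraries (adjusted p = 0.0214) and by 4.3 ± 0.84 without pregnant M (adjusted p = 0.000247). The adjusted p was 0.206 with the mare as a block and 0.00713 with the mare as a block and mare M left out. It was 0.0646 to 0.267 when cyclic J, M or U or pregnant B or C was left out. RPS6KA3, a kinase activated by ERK, had 19, 94, 117, 125 and 47 counts in cyclic B, C, J, M and U. It had 1 count in pregnant C and none in pregnant B, M and U. In CPM of the summed libraries the cyclic group was 184 times the pregnant one, with a 95% exact counting interval of 32.8 to 7280 that covers counting error only, and the adjusted p was 0.0369 (0.242 with the mare as a block). Leaving out any cyclic library, pregnant B or pregnant U took it to between 0.0686 and 0.158. FRS2, an adaptor between FGF receptors and ERK signalling, had 1232 CPM in pregnant M and 3.1 to 115 CPM in the other pregnant libraries, against 11.1 to 114 in cyclic ones, and its estimate of 2.64 ± 1.09 turned to -0.3 ± 1.79 without pregnant M, neither past the threshold. Of 27 genes on the list of FGFs, receptors and ERK feedback, 6 reached the counts needed for a test, and the median of these was -0.41.

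Among secreted and lysosomal proteins of the uterus, GM2A was called with all libraries and STC1 without pregnant M. GM2A lifts gangliosides out of membranes for their breakdown in the lysosome. Its cyclic levels were 688, 138, 806, 1121 and 1425 CPM and its pregnant levels 8502, 650, 770 and 6481 CPM in B, C, M and U. Pregnant B and U stood far above every cyclic library, whereas pregnant C and M lay inside the cyclic range, and GM2A was lower in pregnancy in mare M. The log2 difference was 2.29 ± 0.56 (adjusted p = 0.0221), with adjusted p values of 0.158 with the mare as a block and 0.0798 by DESeq2. It was 0.0708 to 0.308 when cyclic B, C or M or pregnant B or U was left out. STC1, a secreted glycoprotein hormone of calcium and phosphate balance, stood at 3628, 2117, 1956, 3571 and 4687 CPM in the cyclic and at 13790, 12470, 5422 and 7285 CPM in the pregnant libraries. Every pregnant library lay above every cyclic one. The difference was 1.61 ± 0.48 with all libraries (adjusted p = 0.103) and 1.8 ± 0.39 without pregnant M (adjusted p = 0.00286).

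SERPINA14, a uterine serine protease inhibitor induced by progesterone, was called with the mare as a block and not without it, and it is named here after its values were seen. It stood at 20.4, 3.24, 61.8, 529 and 449 CPM in cyclic B, C, J, M and U and at 1134, 413, 1591 and 1070 CPM in pregnant B, C, M and U. Each of the 4 mares was higher in pregnancy, but cyclic M and U lay above pregnant C. The difference was 2.31 ± 0.73 without the block (adjusted p = 0.146) and 3.72 with it (adjusted p = 0.0244). P19, the gene of the lipocalin uterocalin of mare endometrium, ran from 1319 to 5629 CPM in cyclic and from 417 to 1809 CPM in pregnant libraries, with a difference of -1.44 ± 0.55 (adjusted p = 0.339). The serine protease PRSS23 stood at 0 to 50.8 CPM in cyclic and at 138 to 854 CPM in pregnant libraries, highest in pregnant M, with a difference of 4.23 ± 1.24 (adjusted p = 0.0942, 0.542 without pregnant M). Of the uterine secretory proteins 20 of 39 genes were tested, 11 of them were positive, the median was 0.53 with all libraries and 0.05 without pregnant M, and FGF9 and GM2A were the 2 called.

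ANXA2 and S100A6 rose. ANXA2 is an annexin, a protein that binds membrane phospholipids in the presence of calcium, and S100A6 belongs to the S100 proteins, a separate family of small calcium-binding proteins, some of which bind annexins. ANXA2 stood at 196, 289, 257, 44.4 and 95.1 CPM in cyclic B, C, J, M and U and at 1544, 712, 1168 and 1451 CPM in pregnant B, C, M and U. The groups did not overlap and each mare rose, with a difference of 2.78 ± 0.7 (adjusted p = 0.0293, and 0.0708 to 0.167 without cyclic B, M or U or pregnant B or U). S100A6 stood at 96.8, 11.9, 17.3, 3.7 and 1.9 CPM in the cyclic libraries and at 970, 8.15, 545 and 515 CPM in pregnant B, C, M and U. Pregnant C had 3 counts and fell among the cyclic libraries, while the other pregnant libraries stood well above them. The difference was 4.26 ± 1.03 (adjusted p = 0.0205, 0.193 with the mare as a block, and 0.0636 to 0.3 without cyclic C, M or U or pregnant B). Of the annexins and S100 proteins 11 of 23 were tested, 10 of them were positive and the median was 1.66, the highest median among the 22 lists with all libraries. Without pregnant M it was 1.46, the 5 tested transporters of nutrients had a higher median of 1.74, and the median over all genes was -0.05. At an unadjusted p under 0.05 the list held ANXA1 (1.66 ± 0.68, adjusted p = 0.416), S100A11 (2.53 ± 1.04, adjusted p = 0.416) and ANXA7 (3.09 ± 1.34, adjusted p = 0.476) beside the called pair.

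On the list of calcium handling, with 8 of 14 genes tested, 6 were positive with a median of 1.5, and edgeR called none with all libraries, 3 having an unadjusted p under 0.05, while DESeq2 called 1. TRPV6, the calcium entry channel of absorptive epithelia, stood at 379 to 1261 CPM in cyclic libraries and at 2887, 1087, 269.5 and 2707 CPM in pregnant B, C, M and U, with a difference of 1.39 ± 0.61 (adjusted p = 0.479).

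Further higher genes were 3 loci without a name, TM7SF3 and BCAP29, and LOC100052045 had the highest estimate of all genes called higher. In a RefSeq annotation of another build (TB-T2T) its protein-coding neighbours are ANTXRL and NPY4R. It had 3, 1, 2, 0 and 3 counts in cyclic B, C, J, M and U, or 7.64, 1.08, 4.95, 0 and 5.71 CPM, and stood at 659, 348, 424 and 447 CPM in pregnant B, C, M and U. The pregnant libraries lay within a narrow range and no cyclic library held more than 3 counts. LOC100052045 rose by 6.81 ± 1.22 (adjusted p = 0.000203) and remained called when any 1 library was left out, with an adjusted p of 0.0164 without pregnant B. LOC100068406, whose neighbours in the same annotation are MYC and LOC138915048, stood at 189, 2.16, 7.42, 22.2 and 129 CPM in the cyclic and at 534, 258, 911 and 1569 CPM in the pregnant libraries. Each mare rose and the groups did not overlap, with a difference of 3.54 ± 0.83 (adjusted p = 0.015, and 0.0636 to 0.174 without cyclic C or M or pregnant B or U).

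TM7SF3 encodes a membrane protein. It stood at 7.64, 19.5, 47, 11.1 and 5.71 CPM in the cyclic libraries and at 951, 8.15, 828 and 549 CPM in pregnant B, C, M and U. Pregnant C, with 3 counts, lay inside the cyclic range and below the cyclic library of the same mare. TM7SF3 rose by 4.98 ± 1.01 (adjusted p = 0.00143, 0.0704 without pregnant B), and it was not tested with the mare as a block. BCAP29, an endoplasmic reticulum protein involved in the export of membrane proteins, stood at 81.5, 78.9, 7.42, 0 and 22.8 CPM in cyclic and at 715, 277, 802 and 561 CPM in pregnant libraries. All pregnant libraries were above all cyclic ones, and the difference was 3.92 ± 0.94 (adjusted p = 0.0205, 0.0817 with the mare as a block, and 0.0575 to 0.126 without cyclic J, M or U or pregnant B). It was the only call among 28 tested genes, of 38 listed, of the secretory pathway and unfolded protein response, whose median was 0.05 (-0.14 without pregnant M). The gene with the ID 100146336, for which no symbol was found, stood at 0, 3.24, 14.8, 3.7 and 3.81 CPM in cyclic and at 754, 106, 154 and 55.8 CPM in pregnant libraries, with a difference of 5.64 ± 1.49 (adjusted p = 0.0451, 0.176 with the mare as a block, and 0.0944 to 0.407 without cyclic B, C, M or U or pregnant B).

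The lower genes SEMA3G and DOCK8 were abundant in cyclic and low in pregnant libraries. SEMA3G, a secreted semaphorin that guides cells and vessels, stood at 948, 456, 497, 1036 and 436 CPM in the cyclic and at 3.28, 141, 44.9 and 43.4 CPM in the pregnant libraries. Pregnant C was the highest of its group and lay below every cyclic library. SEMA3G fell by 3.52 ± 0.88 (adjusted p = 0.0283, and 0.0527 to 0.201 without cyclic B, M or U or pregnant B or U). On the list of semaphorins and receptors 9 of 20 genes were tested, 5 were negative and the median was -0.93. SEMA4B had 3 to 63 counts in cyclic libraries and 2 counts in all pregnant libraries together, both in pregnant C (adjusted p = 0.339). PLXNA2, a semaphorin co-receptor, stood at 34.6 to 773 CPM in cyclic and 0 to 65.1 CPM in pregnant libraries (-3.43 ± 1.35, adjusted p = 0.375).

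DOCK8 activates the small GTPase CDC42 and is best known from leukocytes. It stood at 160.5, 168, 94, 807 and 913 CPM in cyclic B, C, J, M and U and at 3.28, 0, 0 and 93 CPM in pregnant B, C, M and U. Pregnant U came just under cyclic J, and the other pregnant libraries held 0 or 1 count. DOCK8 fell by 4.1 ± 1.09 (adjusted p = 0.0482), and its adjusted p was 0.00758 with the mare as a block and 0.0636 to 0.434 when cyclic B, C, M or U or pregnant B or C was left out. It was 0.0806 with RLE size factors, 0.14 without a filter on low counts and 0.0514 with a filter of 5 counts in 4 libraries. The 5 markers of T and NK cells summed to 167 to 883 CPM in cyclic and 35 to 540.5 CPM in pregnant libraries, with all 5 detected in both states. Of these markers PTPRC stood at 399, 112, 210, 3.97 and 178 CPM in the cyclic libraries. It stood at 3.5, 3, 0 and 97.6 CPM in pregnant B, C, M and U. CD3E, CD3D and CD2 each had their highest level in a pregnant library, and GNLY in cyclic B. The part of leukocytes in the DOCK8 result was not tested. DOCK8 was the only call among 19 tested genes, of 24 listed, of G protein and small GTPase signalling, whose median was 0.09 (-0.07 without pregnant M).

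The phosphoinositide kinase PIP4K2C rose and its paralogue PIP4K2B had no count in pregnancy. PIP4K2C stood at 163, 176, 146, 14.8 and 126 CPM in cyclic B, C, J, M and U and at 665, 484, 2233 and 254 CPM in pregnant B, C, M and U. The groups did not overlap, with pregnant M far above the rest. The difference was 2.85 ± 0.76 (adjusted p = 0.0482) with all libraries and 1.89 ± 0.86 (adjusted p = 0.45) without pregnant M, and the adjusted p was 0.373 with the mare as a block. It was 0.0679 or more, up to 0.45, when any cyclic library, pregnant B or pregnant M was left out. PIP4K2B had 5 to 58 counts in each cyclic library and none in the 4 pregnant ones, where 3 counts would stand for 8.15 to 19.2 CPM, against 12.7 to 104 CPM in the cyclic libraries (adjusted p = 0.146). PLCB1, a phospholipase that cleaves phosphoinositides, had a difference of -2.95 ± 1.23 (adjusted p = 0.429). Of phosphoinositide metabolism 13 of 22 genes were tested, 8 of them were negative and the median was -0.52.

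CRYAB, a small heat shock protein, rose with all libraries and not without pregnant M. It stood at 0, 41.1, 2.47, 44.4 and 20.9 CPM in cyclic B, C, J, M and U and at 174, 114, 1373 and 105 CPM in pregnant B, C, M and U. All pregnant libraries lay above all cyclic ones, and pregnant M lay far above the others. The difference was 4.31 ± 1.1 (adjusted p = 0.0309) and 2.57 ± 1.68 without pregnant M (adjusted p = 0.723), and the adjusted p was 0.346 with the mare as a block. Leaving out any cyclic library or pregnant B also ended the call, with adjusted p values from 0.0542. HSPB1, another small heat shock protein, stood at 7.64 to 185.5 CPM in cyclic and at 269.5 to 780 CPM in pregnant libraries, with a difference of 2.92 ± 0.93 (adjusted p = 0.157, 0.0465 without pregnant M). CCN2, a secreted matricellular protein on the same list, had 940 to 1928 CPM in cyclic and 120 to 565 CPM in pregnant libraries, which did not overlap (-1.95 ± 0.67, adjusted p = 0.245). Of the heat shock and immediate early genes 14 of 32 were tested, and 11 of them were positive with a median of 0.79.

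Without the pregnant library of mare M, 27 genes were higher (0.497% of 5430 tested) and 10 lower (0.184%), and 17 of the 19 calls remained. CRYAB and PIP4K2C were the 2 lost. Another 20 genes were called, 14 higher and 6 lower, of which 3 had not reached the counts needed for a test with pregnant M. Over the 37 calls the groups did not overlap in 32, a count from the same values by which these genes were called. The share over all genes tested without pregnant M was not determined. With the mare as a block and mare M left out, 17 of the 37 were still called, 19 were not and TM7SF3 was not tested. Among the 19 were SEMA3G (adjusted p = 0.0695), 100146336 (0.176), BCAP29 (0.301), S100A6 (0.464) and RPS6KA3 (0.591).

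A junction gene was among these 20. CDH1, which encodes the adherens junction protein E-cadherin, stood at 58.6, 99.5, 61.8, 3.7 and 30.4 CPM in cyclic B, C, J, M and U and at 1108, 185, 443 and 462 CPM in pregnant B, C, M and U. All pregnant libraries, M included, lay above all cyclic ones, with a difference of 3.41 ± 0.93 with pregnant M (adjusted p = 0.0533) and 3.49 ± 0.89 without it (adjusted p = 0.0228). The adjusted p was 0.33 with the mare as a block and mare M left out. CLDN4, a tight junction protein, had 2.47 to 298 CPM in cyclic libraries, 1341, 389 and 608 CPM in pregnant B, C and U and a single count in pregnant M (2.1 ± 0.83, adjusted p = 0.387). Of cell junctions and polarity 19 of 27 genes were tested, 10 of them were positive and the median was 0.31.

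FRAS1, PIK3R1 and ATL2 were lower without pregnant M, and pregnant M itself stood apart from its group in each. FRAS1, an extracellular matrix protein of epithelial basement membranes, had 647, 242, 443, 274 and 738 CPM in cyclic B, C, J, M and U. It stood at 0, 19 and 3.1 CPM in pregnant B, C and U but at 417 CPM in pregnant M, inside the cyclic range. The difference was -5.89 ± 1.14 without pregnant M (adjusted p = 0.000247) and -2.13 ± 0.92 with it (adjusted p = 0.466). PIK3R1, the regulatory subunit of phosphoinositide 3-kinase, stood at 228 to 629 CPM in cyclic libraries, at 3.28, 16.3 and 6.2 CPM in pregnant B, C and U and at 456 CPM in pregnant M. Its difference was -5.24 ± 1.26 without pregnant M (adjusted p = 0.0109) and -1.53 ± 0.97 with it (adjusted p = 0.791). With the mare as a block and mare M left out, FRAS1 was called (adjusted p = 0.000884), and PIK3R1 (0.34) and ATL2 (0.106) were not. ATL2, which shapes the endoplasmic reticulum, stood at 121 to 618 CPM in cyclic libraries, at 6.55, 5.44 and 15.5 CPM in pregnant B, C and U and at 103 CPM in pregnant M, with a difference of -5.19 ± 1.25 without pregnant M (adjusted p = 0.0109). In all 3 genes pregnant M held the highest pregnant level, and this library also held the highest sum of fibroblast markers. On the scale shared by all 21 libraries FRAS1 was low in the stromal libraries, at 6.09 to 7.1 CPM in the cyclic and 1.91 to 7.66 CPM in the pregnant ones, against 338 CPM in pregnant luminal M. PIK3R1 stood at 202 to 218 CPM and ATL2 at 11.5 and 179 CPM in the 2 pregnant stromal libraries. The part of stromal cells was not tested for any of the 3 genes.

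In other genes pregnant M was the low library. C2CD2, a lipid-transfer protein, had 0 to 150 CPM in cyclic libraries, 973, 541 and 369 CPM in pregnant B, C and U and a single count in pregnant M (without it 3.23 ± 0.85, adjusted p = 0.029). IER3, an early response gene, stood at 102 to 546 CPM in cyclic libraries, at 2140, 563 and 1836 CPM in pregnant B, C and U and at 0 in pregnant M (without it 2.39 ± 0.61, adjusted p = 0.0233). MYOF, a membrane repair protein, stood at 79.9 to 285 CPM in cyclic libraries, at 796, 1767 and 462 CPM in pregnant B, C and U and at 70.6 CPM in pregnant M (without it 2.64 ± 0.7, adjusted p = 0.029). The calpain subunit CAPNS1 (3.07 ± 0.82 without pregnant M, adjusted p = 0.0324), the ubiquitin-conjugating enzyme UBE2J1 (6.27 ± 1.53, adjusted p = 0.0132) and CDC42EP2, an effector of CDC42 (6.65 ± 1.64, adjusted p = 0.0132), had 1, 1 and 0 counts in pregnant M. With the mare as a block and mare M left out, IER3 was still called (adjusted p = 0.044), and C2CD2 (0.413), MYOF (0.0992), CAPNS1 (0.582), UBE2J1 (0.0687) and CDC42EP2 (0.203) were not. MMP26, a matrix metalloproteinase, showed no such gap. It stood at 344 to 693 CPM in cyclic and at 9.83, 106, 19.2 and 15.5 CPM in pregnant B, C, M and U. Its difference was -3.67 ± 0.99 with pregnant M (adjusted p = 0.0513) and -3.46 ± 0.95 without it (adjusted p = 0.0407). The adjusted p was 0.09 with the mare as a block and 0.0353 with the mare as a block and mare M left out.

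**Figure D2:**
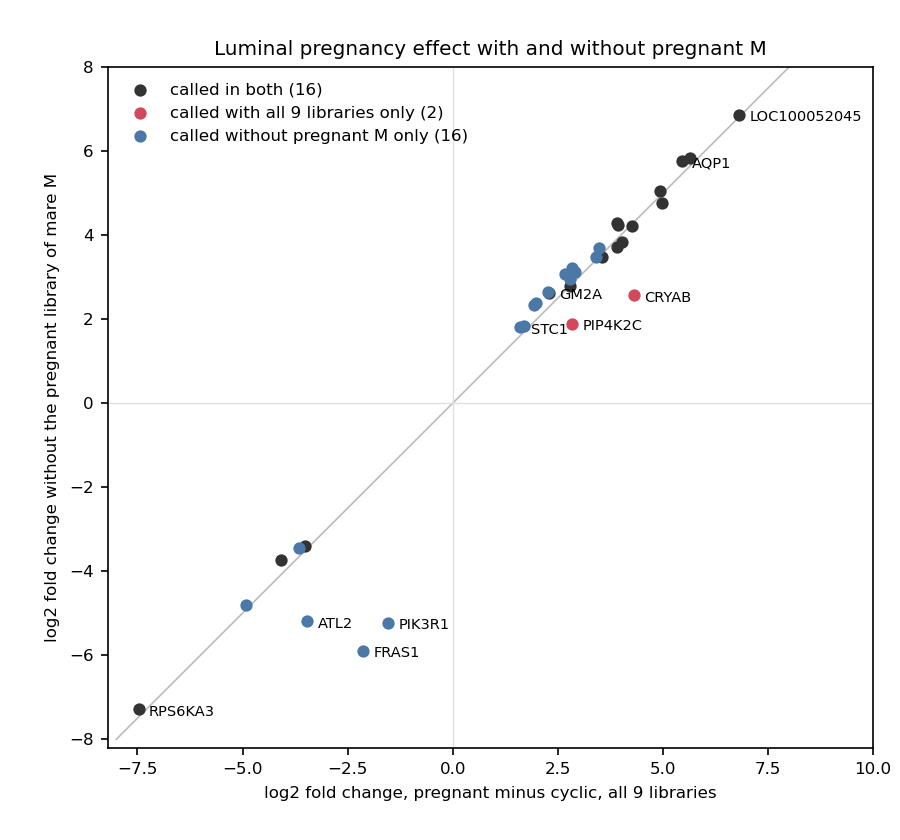
Log2 difference, pregnant minus cyclic, with all 9 libraries (horizontal axis) and without the pregnant library of mare M (vertical axis) for most of the genes called in either fit and tested in both. Most points lie on the diagonal of equal values, FRAS1, PIK3R1 and ATL2 lie below it at -5.89, -5.24 and -5.19 without that library, and CRYAB and PIP4K2C are the 2 genes called only with it.

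With the mare as a block, which uses mares B, C, M and U and leaves out mare J, 12 genes were called (0.319% of 3759 tested), 8 higher and 4 lower. Of the 19 genes called without the block 9 remained, among them TMEM213, LOC100052045, CD55, AQP1, DOCK8, LOC100068406, ANXA2 and SEMA3G. A further 9 had adjusted p values of 0.0817 to 0.373, and TM7SF3 was not tested. The 3 genes called only with the block were SERPINA14 (3.72, adjusted p = 0.0244), RN18S (-1.9, adjusted p = 0.0101) and the gene with the ID 102149844 (2.04, adjusted p = 0.0253), named after their values were seen. The median log2 difference over all genes was -0.45 with the block, and single values are to be read against that shift. RN18S was lower in pregnancy in 3 of the 4 mares. Pregnant M held 3953 CPM of it, against 116200 to 503800 CPM in the other pregnant libraries. Without pregnant M and without the block its difference was -0.34 (adjusted p = 0.657). It was not called with the mare as a block and mare M left out.

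**Figure D3:**
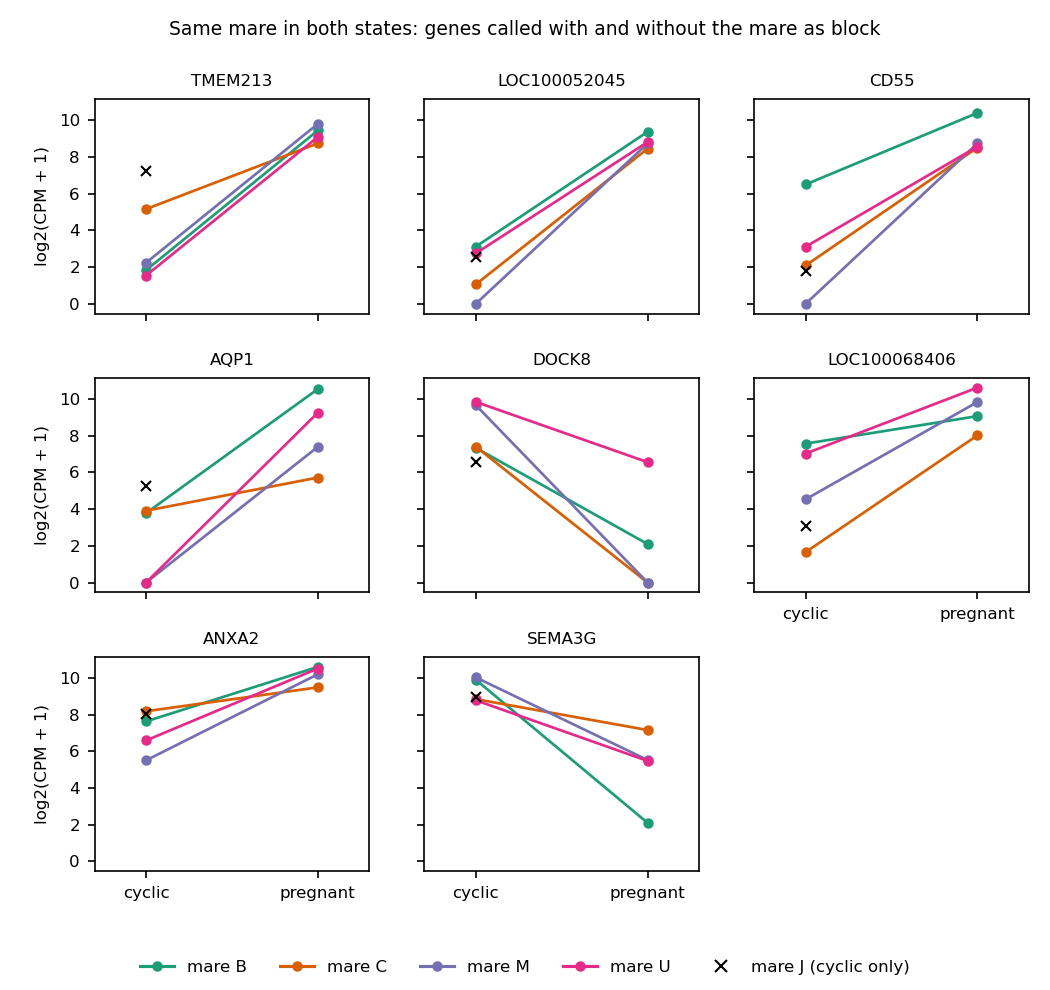
Level in the cyclic and the pregnant luminal library of the same mare, as log2(CPM + 1), for 8 of the 9 genes called both with and without the mare as a block. Each line joins the pair of libraries of 1 mare (B, C, M or U), the cross is the cyclic library of mare J, and in each panel all 4 lines slope the same way.

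Several lists held no called gene. Of 38 interferon-stimulated genes 16 were tested, 11 of them were positive with a median of 1.13, and edgeR called none, with 3 higher at an unadjusted p under 0.05, while DESeq2 called 3 higher. The 3 were IFI44L (0 to 15.3 CPM in cyclic, 65.5 to 269.5 in pregnant libraries, adjusted p = 0.307), LGALS3BP (0 to 48.4 and 91.8 to 490 CPM, adjusted p = 0.311) and GBP5 (0 to 48.4 and 52.4 to 346 CPM, adjusted p = 0.424), and the groups did not overlap in any of them. These 3 were picked for the smallest p on the list, and 4.72% of all tested genes had groups that did not overlap. MX1, a classical interferon response gene, had a difference of -0.43 ± 1.39. Of 21 antigen presentation genes 12 were tested, and all 12 had positive estimates with a median of 0.5 with all libraries, while DRA and PDIA3 were negative without pregnant M (-0.75 and -0.14), and edgeR, DESeq2 and limma-voom called none, with 1 at an unadjusted p under 0.05. That gene, the major histocompatibility gene EQMHCC1, stood at 1177 CPM in pregnant B, 139.6 in U and 0 in C and M. Reads of such near-identical family members may be split between them.

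Of 54 genes of oxidative phosphorylation 30 were tested, 25 of them were positive with a median of 0.75 (0.52 without pregnant M), and none was called by edgeR, DESeq2 or limma-voom, with 3 higher at an unadjusted p under 0.05. These 3 were ATP5F1B, ATP5MG and UQCRB, and pregnant M held the highest level of each. ATP5F1B, a subunit of ATP synthase, stood at 2496 CPM in pregnant M and at 574, 177 and 55.8 CPM in pregnant B, C and U, against 28.5 to 370 CPM in cyclic libraries. Its difference was 1.84 ± 0.74 with pregnant M and 0.23 ± 0.89 without it. For ATP5MG it was 2.42 ± 1.02 with and 0.98 ± 1.4 without that library. Of 22 steroid receptors and response genes 10 were tested, and 8 were negative with a median of -0.27, none past an unadjusted p under 0.05 and none called by DESeq2 or limma-voom. NRIP1, a corepressor of nuclear receptors, had a difference of -1.42 ± 0.82 and the progesterone receptor membrane component PGRMC1 of -0.93 ± 0.68. Only 3 of 22 prostaglandin genes reached the counts needed for a test (PTGES3, HPGD and AKR1B1), with adjusted p values of 0.85, 0.973 and 0.973, none at an unadjusted p under 0.05 and none called by DESeq2 or limma-voom. The synthesis and transport of prostaglandins could hardly be assessed at this depth.

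Among transporters of nutrients 4 of 24 genes could be tested, and none was called by edgeR. SLC2A3, a glucose transporter, stood at 87.5 to 383 CPM in cyclic and at 32.8, 43.5, 19.2 and 0 CPM in pregnant libraries (-3.43 ± 1.28, adjusted p = 0.317). SLC36A2, a proton-coupled amino acid transporter, stood at 0 to 62.8 CPM in cyclic and at 190, 190, 89.8 and 269.8 CPM in pregnant libraries (3.77 ± 1.54, adjusted p = 0.416). The groups did not overlap in either gene, as in 4.72% of all tested genes, and both were picked for the smallest p on the list. DESeq2 called 1 gene of the list lower, and 1 gene was higher and 1 lower at an unadjusted p under 0.05. For adhesion and attachment 15 of 28 genes were tested, 8 of them were positive with a median of 0.17, none called by edgeR, DESeq2 or limma-voom and ITGAV alone under an unadjusted p of 0.05 (-2.11 ± 1.07, adjusted p = 0.631). Of 25 matrix proteases and inhibitors 10 were tested and 8 were negative with a median of -0.89, with no call with all libraries by edgeR (MMP26 the 1 gene at an unadjusted p under 0.05) and 1 lower by DESeq2. Of 21 motile cilia genes 11 were tested and 8 were positive with a median of 0.13, and no gene passed even an unadjusted p under 0.05 or was called by DESeq2 or limma-voom.

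**Figure D4:**
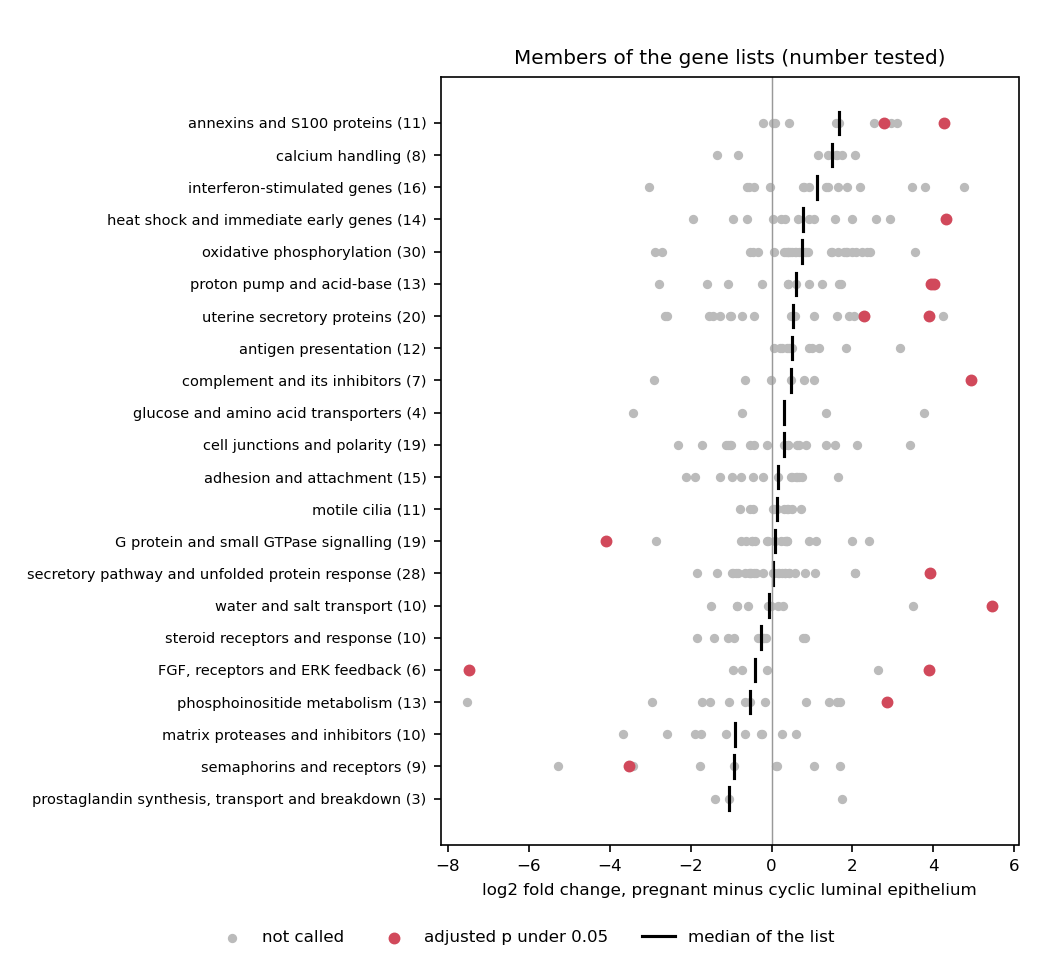
Log2 difference, pregnant minus cyclic, of each tested member of the 22 gene lists, with called genes in red and a black bar at the median of each list. Annexins and S100 proteins have the highest median, 1.66, and most lists have medians within 1 of the median over all genes, -0.04.

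Of the most abundant protein-coding transcripts none was called with all libraries, and STC1, described above, was called without pregnant M. EEF1A1, the translation elongation factor, stood at 3911 to 11400 CPM in cyclic and 4736 to 8151 CPM in pregnant libraries (-0.09 ± 0.47, adjusted p = 0.992). CD74, the invariant chain of class II antigen presentation, stood at 1608 to 5979 and 2162 to 9607 CPM (0.92 ± 0.49, adjusted p = 0.684). VNN2, a pantetheinase, ranged from 623 to 6356 and 918 to 3428 CPM (-0.65 ± 0.54, adjusted p = 0.915). PRXL2A, a redox protein, had 537 to 1603 CPM in cyclic libraries, 1982 to 2669 CPM in pregnant B, C and U and 11040 CPM in pregnant M, with a difference of 1.97 ± 0.54 (adjusted p = 0.0533) that was 1.05 ± 0.51 without pregnant M.

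The glandular epithelium of the same biopsies held most of the higher genes at lower levels. On a scale shared by all 21 libraries, all 15 higher genes had a higher median in pregnant luminal than in pregnant glandular libraries, and 10 of 15 had one in the cyclic state. Within the glandular epithelium 10 of the 15 also had a higher median in pregnant than in cyclic libraries. The 15 genes were called for high values in these same pregnant luminal libraries, and the shares over all genes were not determined. TMEM213 had a median of 502 CPM in pregnant luminal libraries and 1.22 in pregnant glandular ones, with 3 counts in all 4 of the latter together. ATP6V0A4 (433 against 0.288 CPM), LOC100068406 (581 against 0.288) and LOC100052045 (360 against 3.46) gave the same picture, and FGF9 stood at 483 against 3.4 CPM. GM2A reached a median of 3050 CPM in pregnant luminal libraries, 620 in cyclic luminal ones, 58.3 in pregnant glandular and 14.1 in cyclic glandular ones. Not every higher gene was absent from other compartments: 100146336 had a median of 140.5 CPM in the 2 pregnant stromal libraries and 109 in pregnant luminal ones.

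The difference between the pregnancy effects of the compartments was itself tested within biopsies, over the 16 libraries of both epithelia from the 4 mares that gave all of them. Of the 6884 genes tested 1 passed (0.0145%), RN18S, and 381 had an unadjusted p under 0.05. None of the 19 luminal genes passed this test by edgeR, with adjusted p values of 0.867 to 0.92, while 9 of them had an unadjusted p under 0.05. DESeq2 called the difference for 6 of the 19: RPS6KA3 (adjusted p = 0.00929), BCAP29 (0.0141), DOCK8 and LOC100052045 (0.0149 each), TMEM213 (0.0383) and 100146336 (0.0489). RPS6KA3 had 24.9 to 34.6 CPM in the 4 pregnant glandular libraries, which held 99 counts together, against 1 count in the pregnant luminal ones. For LOC100052045 the difference was -6.62 ± 2.42 by edgeR, glandular minus luminal. The median of this difference over all genes was 1.28, and single values are to be read against that shift. The 19 genes were picked by luminal values that also enter this difference, so calls among them do not test whether the effect is luminal only. The difference was called for none of the 19 by the main test, for 6 by DESeq2 and for 0 by edgeR without the biopsy block. DESeq2 was given the same 6884 genes, and the number of them for which it called the difference is given in the closing section.

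The number of calls depended on which library was left out. Without pregnant B, 2 genes were called, LOC100052045 and RN18S, and the other 18 of the 19 genes had adjusted p values of 0.0704 to 0.407. Without cyclic M the 4 calls were LOC100052045, CD55, TM7SF3 and AQP1, and the lost 15 had adjusted p values of 0.126 to 0.347. Leaving out cyclic B, C or U gave 9, 10 and 7 calls and leaving out cyclic J 15, whereas leaving out pregnant C gave 30, with 17 of the 19 among them. The 19 genes kept their direction in each of these fits that tested them; S100A6 was not tested without cyclic B, nor TM7SF3 without cyclic J. Among the other settings, testing without a filter on low counts ended 12 of the 19 calls (adjusted p values of 0.0603 to 0.173), a filter of 5 counts in 4 libraries ended those of 100146336, DOCK8 and PIP4K2C (up to 0.0716), and RLE size factors that of DOCK8. limma-voom and the joint fit of all 21 libraries called none of the 19, of which 5 and all 19 had an unadjusted p under 0.05. Over all genes 12 had such a p with limma-voom and 1431 in the joint fit. LOC100052045 and CD55 kept their calls in 18 of 21 alternatives, AQP1 in 16 of 21 and TMEM213 in 15 of 22, and CRYAB in 6 of 20.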

How the data were processed

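Per the labels' protocols, laser-captured RNA was sequenced single-end on 1 flow cell (2 lanes). The submitters' processing notes name Trimmomatic 0.32.2 (trimming) and HISAT2 2.0.3 (alignment); for the counting tool, build and annotation nothing is given in the sources used here. Raw read counts per gene ID were deposited by the authors for 21 libraries, with 2 tables of signal in CPM (counts divided by 1 constant per library, for all 21 and for 19 libraries), which served as alternatives only. No sequences or coordinates were used. Symbols came from a RefSeq table (TB-T2T), which matched 21420 of 24942 IDs (85.9%), and unmatched IDs carried 2.26% to 4.53% of a luminal library's counts.

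The main test was edgeR 4.0.16 (quasi-likelihood F-test, two-sided) in R 4.3.3 on the 9 luminal libraries, with TMM scaling, filterByExpr (minimum count 10, minimum total 15), no block and Benjamini-Hochberg adjustment over all genes tested, threshold 0.05. The SE was computed from the estimate and its F value and so rests on spread shared between genes. Adjusted p values come from this test unless DESeq2 1.42.0 or limma 3.58.1 (also voom, and on log2 of the deposited signal plus 1) is named. The code was tested on simulated counts.

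Same letters mark the same mare. Deviations from the group means correlated at 0.00745 to 0.0693 (median 0.0599) in the 4 same-mare pairs and at -0.0897 to 0.035 (median -0.00688) in the 16 other pairs of libraries. No 2 libraries were identical. Genes named were all those called; the 12 with a symbol and the smallest p of those called only without pregnant M; up to 3 members per list with the smallest unadjusted p under 0.05; the 10 most abundant protein-coding genes, for levels; and those called with and without the block. Some genes that fall under this rule are not reported here. The members and the gene and marker lists (615 genes, 42 without a match) were chosen with earlier results of these data known. Intervals and floors (3 counts) cover counting error only: the reads were amplified and carry no molecular identifiers. P-values measure the spread over these biopsies and draw on spread shared between genes. The main test treats the 2 libraries of a mare measured in both states as independent.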

Additional observations from a re-analysis of the deposited data

Results flagged for a closer look

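Among 68 groups of libraries checked for 1 value far from the rest, 7 held one, and chance flags about 1 in 20. In pregnant B, CD55 (1341 CPM) stood above the other pregnant libraries. In pregnant C, TM7SF3 and S100A6 (8.153 CPM each) stood below the others, and RPS6KA3 (2.718 CPM, 1 count) was the only value above 0. In pregnant M, FGF9 (6.417 CPM, 1 count) and the number of detected genes (4648) stood below the others. In cyclic M, PIP4K2C (14.8 CPM) stood below the other cyclic libraries.

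RN18S, the 18S ribosomal RNA gene, had a pregnancy effect that differed between the compartments, by 3.643 on the log2 scale, glandular minus luminal (edgeR, adjusted p = 4.46e-22). The adjusted p was 0.13 by DESeq2 and 0.585 when a count in every epithelial library was required, and the difference was 1.67 without mare M.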

How the results depend on the processing

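Against 19 genes called with all 9 libraries, the count was 12 without a filter on low counts, 83 with DESeq2 (29 higher, 54 lower, 17 of the 19 shared), 1 with limma-voom (RN18S; 12 genes had an unadjusted p under 0.05), 12 with the mare as a replicate block (9 shared), 1 in a joint fit of all 21 libraries (RN18S; all 19 had an unadjusted p under 0.05) and 7 with limma on the deposited 21-library signal. In the joint fit 1431 genes in all had an unadjusted p under 0.05. Leaving out 1 library gave 2 to 37 calls. Other settings gave 15 to 26. Against 37 genes called without pregnant M, the count was 146 with DESeq2, 1 with limma-voom, 18 with the mare as a replicate block (17 shared) and 12 to 55 with 1 further library left out. The glandular minus luminal difference gave 0 genes when a count in every library was required, 65 with DESeq2, 8 without the biopsy block and 1 gene with any 1 mare left out. FRS2 turned to -1.97 with the mare as block without mare M and to -0.833 with the deposited 19-library signal, and ran from -0.297 (without pregnant M) to 3.10 with 1 library left out. ATP5MG turned to -0.00532 and -0.178 under the first and second of these. The cause was not tested. No called gene reversed under an alternative that was run. Over the named genes 862 results kept their direction and side of the threshold, 250 lost the call and 37 gained it. With 136259 to 1382614 counts per library, 1 count stood for up to 6.42 CPM, which limits what can be said of low genes.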
